A study of Mus musculus with 112 samples.

Results

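The unfolded protein response is the program that cells switch on when proteins fold poorly in the endoplasmic reticulum (ER). Its gene products were followed here through 10 listed members: the ER chaperones and folding enzymes Hspa5, Hsp90b1, Calr, Pdia3 and Pdia4, the transcription factors Xbp1, Atf4, Atf3 and Ddit3, and the degradation factor Herpud1. The members were taken by symbol, and all 10 were found among the 32544 gene symbols of both count tables. RNA came from the gastrocnemius, a calf muscle, of 56 mice of the Diversity Outbred stock, whose animals differ from each other genetically. The mice were 16 weeks old, 28 female and 28 male, and each wore a cast on 1 hindlimb for 3 weeks. Both limbs of every animal were sequenced, which gives 4 groups of 28 libraries: female control, female immobilized, male control and male immobilized. The right limb was the cast limb and the left limb the control in every animal, so side and casting cannot be told apart. Control tissue was thus taken from mice that had a cast on their other leg, and uncast mice were not part of the comparison. Females and males were counted in separate tables, so sex and table cannot be told apart either.

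Secreted and membrane proteins, procollagen among them, are folded in the ER by chaperones such as Hspa5 (BiP), and unfolded protein is sensed by the membrane proteins Ire1 (gene Ern1), Perk (Eif2ak3) and Atf6. Ire1 splices the Xbp1 transcript into the form that encodes the active factor, Perk phosphorylates eIF2 alpha and so favours translation of Atf4, and Atf6 is cut by proteases to release a transcription factor. Atf4 acts upstream of Atf3 and of Ddit3 (CHOP), and Xbp1 and Atf6 act on chaperone and degradation genes. Muscle fibres hold a specialised ER, the sarcoplasmic reticulum, while fibroblasts, macrophages and plasma cells of the same tissue carry an abundant secretory ER. Counts per gene show transcript abundance only: Xbp1 splicing, eIF2 alpha phosphorylation and Atf6 cleavage were not measured. In whole muscle, more cells of a type and more RNA per cell cannot be told apart.

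The 10 genes also differ in the regulatory letters next to their start sites. In the RefSeq promoters of GRCm38.p6 (250 bases before to 50 after the start), the ER stress response element (CCAAT and CCACG with 9 bases of any kind between them), searched on both strands, was present in 3 of the 10 members and in 39 of 32851 promoters (0.119%). Those 3 were Hspa5, Hsp90b1 and Calr, and Hsp90b1 held 2 matches. The shorter ERSE-II element (ATTGG and CCACG with 1 base between them, on either strand) was present in Herpud1 and in 12 promoters in all (0.0365%). The stretches that hold the matches are shown for these 4 genes. In the results that follow, the changes of Hspa5, Hsp90b1 and Calr moved together across animals, and Herpud1 did not follow them. Pdia3 and Pdia4 held no match to either element, and they moved with the same 3 chaperones and with each other (Pearson's r 0.93). A link between these letters and the changes was not tested. Capitals mark the matched element, and each stretch reads 5′ to 3′ along the gene's strand.
Hspa5, chr2:34771995-34772073, plus strand: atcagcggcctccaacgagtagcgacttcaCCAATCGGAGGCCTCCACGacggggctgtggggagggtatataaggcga
Hsp90b1, chr10:86705503-86705686, minus strand: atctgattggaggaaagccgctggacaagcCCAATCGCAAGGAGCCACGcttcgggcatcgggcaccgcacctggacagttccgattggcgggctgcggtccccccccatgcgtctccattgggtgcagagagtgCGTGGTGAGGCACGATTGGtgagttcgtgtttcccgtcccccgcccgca
Calr, chr8:84847045-84847123, minus strand: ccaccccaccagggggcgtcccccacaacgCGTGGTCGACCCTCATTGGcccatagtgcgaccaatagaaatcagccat
Herpud1, chr8:94386347-94386417, plus strand: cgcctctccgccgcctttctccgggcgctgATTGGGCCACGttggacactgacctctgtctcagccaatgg
The Hspa5 match lay 65 to 47 bases before the start, the Herpud1 match 52 to 42 bases before it, the Calr match 162 to 144 bases before it on the other strand, and the Hsp90b1 matches 212 to 194 and, on the other strand, 107 to 89 bases before it. The Xbp1-type element TGACGTGG (222 of all promoters, 0.676%) and the Atf4-type element TGATGNAAT (317 of all promoters, 0.965%) matched none of the 10 windows. A match is a description of letters in a window, not a measured binding site. The elements searched are ones already known for ER stress genes, so matches in the members are no independent finding. Whether the members hold more of them than other genes was not tested. The ER stress response element can be read on either strand and shares its CCAAT letters with other CCAAT boxes.

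The libraries held 1716485 to 9995936 counted reads, with a median of 4395118. Acta1, the skeletal muscle actin, marks muscle fibres, and 10 libraries held less than 50% of its median level: the immobilized limbs of females 2, 22, 41 and 42 and of male 35, and the control limbs of females 26, 44 and 48 and of males 52 and 55. The summed level of 12 muscle fibre markers was 12231 to 51964 CPM (counts scaled to library size) in 9 of these 10 libraries, and only 36.9 CPM in the control limb of male 52, against 90081 to 236849 CPM in the other 102 libraries. Markers of other cells were high in several of them. Plasma cell markers summed to 25521 CPM in the immobilized limb of female 2 and 10869 CPM in the control limb of female 26, against at most 416.9 CPM in the 102 libraries. Adipocyte markers reached 28328 CPM in the control limb of male 52. Males 15 and 16 were the only 2 of 56 animals whose limbs did not match each other best on 150 genes; each matched the other animal instead. The limb, sex and collagen slope tests of the members were repeated without the animals of the low Acta1 libraries and without males 15 and 16. The correlations with markers, between members and with other genes, and the results for gene lists, are given with all these animals included.

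All 10 members were detected in every library, with at least 8 reads each. Per kilobase of exon, the control limbs held most Calr (median 65.9 CPM per kb, range 47.6 to 167) and Atf4 (64.9, range 36.2 to 106), whose ranges overlapped. Herpud1 (49.6), Hspa5 (46.4) and Hsp90b1 (33.3) followed, then Xbp1 (22.3) and Pdia3 (20.5), Atf3 (11.7), Ddit3 (6.75) and Pdia4 (5.91). Neighbours in that order overlapped in every case. The exon lengths come from a GENCODE annotation of the mouse, which may not be the one used for counting.

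**Figure D1:**
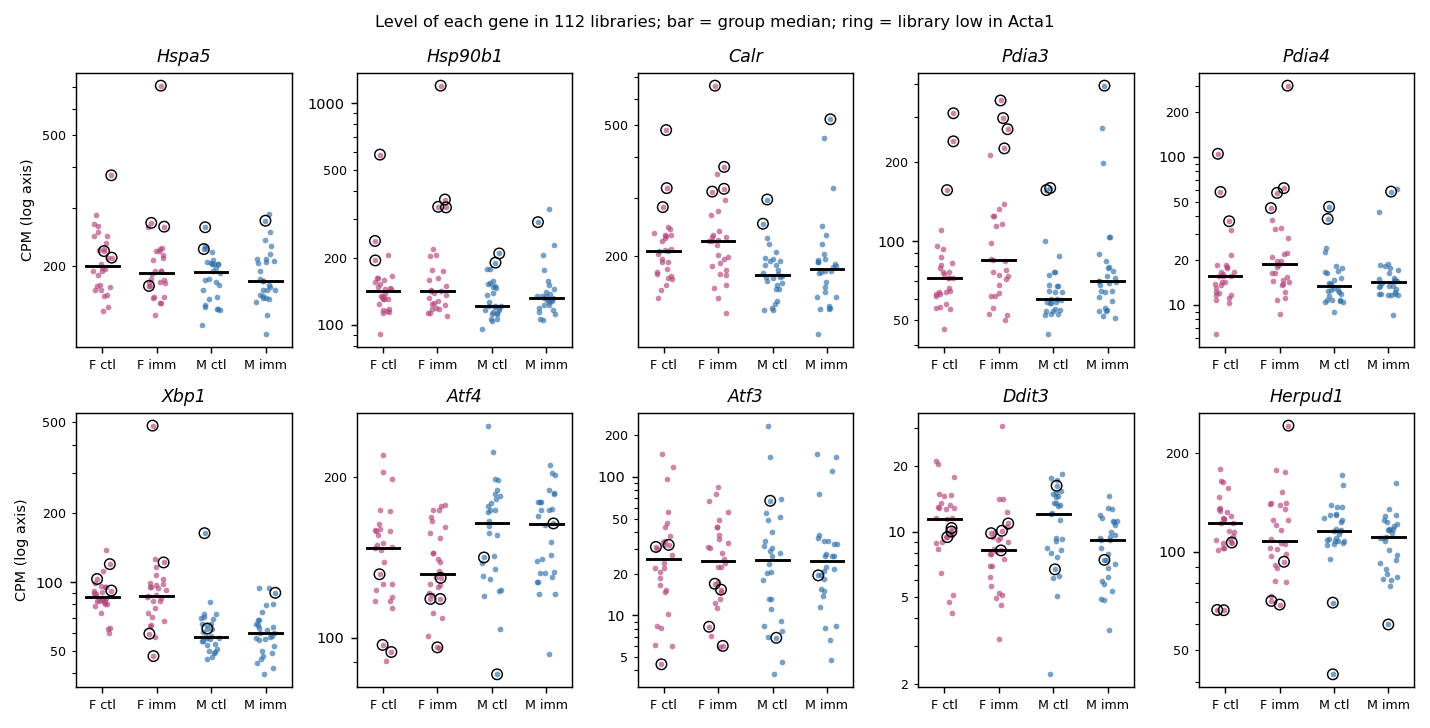
Level of each of the 10 genes in CPM (log axis) in the female (F) and male (M) control (ctl) and immobilized (imm) limbs, 28 libraries a group, with the group median as a bar and a ring around the 10 libraries low in Acta1. The 4 groups overlap for every gene, ringed libraries hold many of the highest chaperone levels, and Xbp1 sits lower in both male groups.

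The ER chaperones showed no shift between the limbs that passed the test in either sex. By edgeR's quasi-likelihood test with an animal term and Benjamini-Hochberg adjustment, 0 of the 10 members passed an adjusted p of 0.05 in females, where 543 of 11886 genes tested did (4.57%, with 2.1% higher and 2.47% lower), and 0 of 10 passed in males, where 263 did (2.21%, with 1.09% higher and 1.12% lower). At an unadjusted p of 0.05, 1 member passed in each sex, and it was Ddit3 both times; 24.4% of all genes in females and 17% in males reached that level. DESeq2 and limma voom also called 0 members in each sex, with 1 at an unadjusted p of 0.05. That level was reached by 3314 and 2970 of 11886 genes in females and by 2307 and 2343 in males, in that order of tools. Without the 10 animals that have a library low in Acta1, 17.2% of genes in females and 9.13% in males passed, and still 0 members.

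Hspa5, the abundant Hsp70-type chaperone of the ER lumen, had 146 to 376 CPM in female control limbs (median 199.8) and 142 to 704 CPM in female immobilized limbs (median 190.3). In males the levels were 132 to 262 CPM (median 191) in control limbs and 124 to 287 CPM (median 179) in immobilized limbs. The groups overlapped, with the highest value of each sex in an immobilized limb. The log2 difference between the limbs was -0.04 (SE 0.09) in females and 0.02 (SE 0.09) in males. Hspa5 was higher in the cast limb of 11 of 28 females and 14 of 28 males. The 95% intervals of these differences were -0.22 to 0.14 and -0.16 to 0.19.

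Hsp90b1 (Grp94), the Hsp90 of the ER, had medians of 142.2 and 141.7 CPM in female control and immobilized limbs and 122 and 132 CPM in male ones. Its highest values were 585 CPM in the control limb of female 26 and 1197 CPM in the immobilized limb of female 2, both low in Acta1. The log2 difference was 0.14 (SE 0.15) in females and 0.11 (SE 0.15) in males. Calr (calreticulin), a lectin chaperone that binds glycoproteins and calcium, had medians of 207 and 222 CPM in females and 175 and 182 CPM in males, with log2 differences of 0.11 (SE 0.11) in females and 0.08 (SE 0.11) in males. For both genes the limbs overlapped, and in each sex the highest values lay in immobilized limbs, above the control range.

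In females the protein disulfide isomerases had the largest point estimates among the chaperones, and in males Pdia3 did. Pdia3 (ERp57), which works with Calr on glycoproteins, ranged from 46.2 to 309 CPM (median 72.2) in female control limbs and from 49.8 to 346 CPM (median 84.3) in female immobilized limbs. In males it ranged from 43.9 to 160 CPM (median 59.9) and from 51.0 to 394 CPM (median 70.1). Its log2 difference was 0.32 (95% interval -0.05 to 0.69, adjusted p = 0.267) in females, higher in 17 of 28, and 0.24 (-0.13 to 0.60, adjusted p = 0.53) in males, higher in 18 of 28. Pdia4 (ERp72) had medians of 15.7 and 18.9 CPM in females and 13.5 and 14.3 CPM in males, and log2 differences of 0.36 (-0.10 to 0.82, adjusted p = 0.32) and 0.11 (-0.34 to 0.56, adjusted p = 0.852) by edgeR. It was higher in the cast limb of 19 of 28 females and 16 of 28 males.

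These averages hide large opposite changes in single animals. Female 2 had the highest within-animal change of all females in 5 of the 5 chaperones, from 1.49 (Calr) to 4.75 (Pdia4) log2 units. Female 26 had the lowest in 4 of the 5, down to -3.52 for Pdia4; her control limb was the library low in Acta1. In males, animals 31 and 35 held the highest changes (up to 2.75 for Pdia3 in male 35) and male 55 the lowest in 3 of the 5. All 5 chaperones were higher in the cast limb of 7 females and 9 males, and all 5 were lower in 6 females and 6 males. Outside the animals with a library low in Acta1, the Hsp90b1 changes of females narrowed from a span of -2.25 to 3.72 to one of -0.56 to 0.61.

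**Figure D2:**
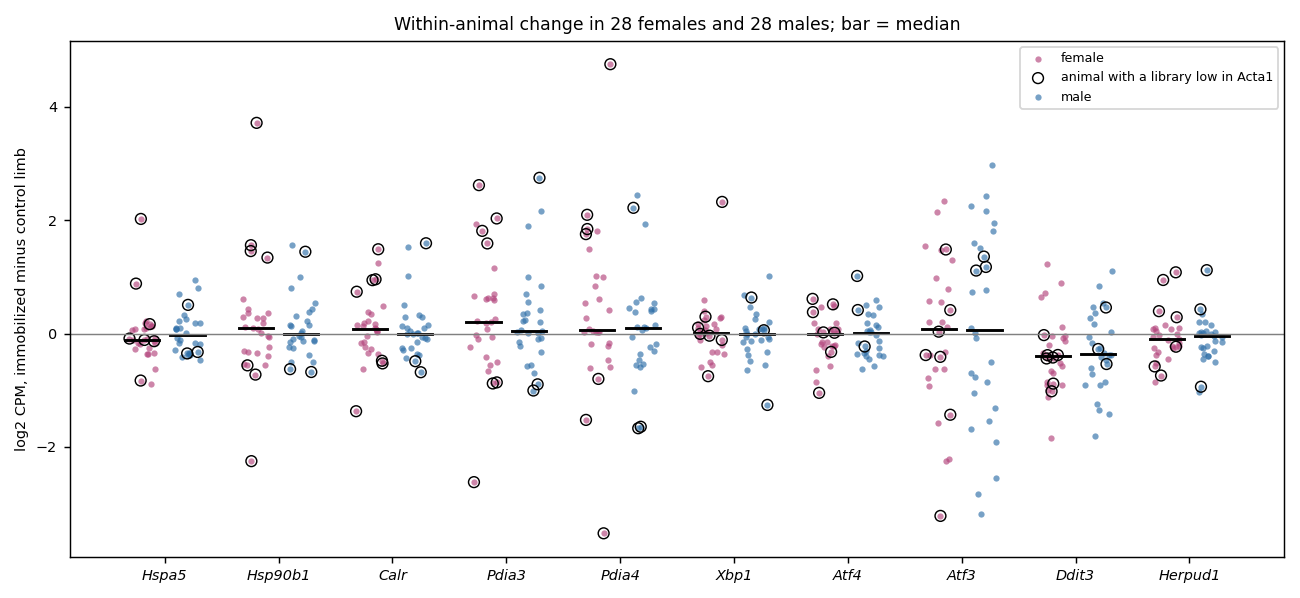
Within-animal change of each gene (log2 CPM of the immobilized limb minus the control limb) in 28 females and 28 males, with the median as a bar and a ring around the 10 animals that have a library low in Acta1. Ddit3 has the lowest median in both sexes, and the highest and lowest points of Hsp90b1, Pdia3 and Pdia4 in females belong to the ringed females 2 and 26.

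Among the transcription factors, Ddit3 was lower in most cast limbs. Ddit3 encodes CHOP, a factor linked to cell death after lasting ER stress. It had 4.22 to 21.2 CPM (median 11.5) in female control limbs and 3.23 to 30.7 CPM (median 8.27) in female immobilized limbs. Male control limbs had 2.21 to 18.5 CPM (median 12.1) and male immobilized limbs 3.55 to 14.6 CPM (median 9.15). The groups overlapped, but the cast limb had less in 23 of 28 females and 19 of 28 males. The log2 difference was -0.37 (SE 0.13, 0.771-fold) in females and -0.34 (SE 0.13, 0.79-fold) in males. With adjusted p-values of 0.0833 and 0.156 by edgeR, neither passed over all genes. In females the adjusted p ranged from 0.056 (DESeq2) to 1 over the alternatives, and in males from 0.0821 (limma voom) to 0.973. Among the animals numbered 41 to 59 alone the female difference was -0.01, and among those numbered 21 to 40 alone the male one was -0.02.

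Atf4, the factor whose translation rises when eIF2 alpha is phosphorylated, had medians of 148 and 132 CPM in female control and immobilized limbs and 164 and 163 CPM in male ones. Its log2 difference was -0.07 (SE 0.08) in females and -0.01 (SE 0.08) in males, with exactly 14 of 28 animals higher in each sex. Xbp1 had medians of 86.5 and 87.5 CPM in females and 57.9 and 60.1 CPM in males, and its log2 differences were 0.03 (SE 0.09) and -0.02 (SE 0.09). Its top value was 484 CPM in the immobilized limb of female 2 against at most 138 CPM in female control limbs. Xbp1 is also needed by plasma cells, whose markers peaked in that library; their part in its level was not tested.

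Atf3, an immediate stress-response factor, was the most variable member. Its levels ran from 4.43 to 146 CPM in female control limbs and from 3.75 to 234 CPM in male control limbs, with medians of 24.6 to 25.5 CPM in all 4 groups. The standard deviation of its within-animal change was 1.53 log2 units over 56 animals, at the 93.4th percentile of the genes tested, against 0.39 for Atf4 (11.4th percentile) and 0.673 for the median gene. Its mean log2 difference was -0.02 (SE 0.30) in females and 0.12 (SE 0.31) in males. The 95% interval in females, -0.62 to 0.58, was the widest of the 10 genes. In a limma F test of whether the change differed between animals numbered 1 to 20, 21 to 40 and 41 to 59, 0 of 10 members passed, where 1 of 11886 genes did (0.00841%).

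Herpud1, a membrane protein of ER-associated degradation, was steady. Its medians were 122 and 107 CPM in females and 115 and 110 CPM in males, and its log2 differences were -0.08 (SE 0.08) and -0.11 (SE 0.08), lower in 18 and 17 of 28 animals. The lowest Herpud1 level, 42.2 CPM, was in the control limb of male 52, the library that nearly lacked muscle fibre markers. The level in the 102 libraries outside the low Acta1 set was never below 73.3 CPM.

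The response to the cast was not shown to differ between the sexes for any member. The male minus female difference in log2 change ran from -0.25 (Pdia4) to 0.14 (Atf3), and every adjusted p was 1.00 by edgeR. By that test 0 of 11886 genes passed, and 194 did at an unadjusted p of 0.05 (1.63%), with 0 of the 10 members among them. The 95% interval for Pdia4, -0.89 to 0.39, is wide, while that for Atf4, -0.16 to 0.28, is narrow.

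The sexes did differ in the level of Xbp1, which was lower in males. Female control limbs had 59.8 to 138 CPM and male control limbs 46.3 to 164 CPM; the male maximum was the control limb of male 52, and without the low Acta1 libraries the male range ended at 82.0 CPM, below the female median of 85.0 CPM. The male minus female difference was -0.48 (SE 0.09, 0.718-fold, adjusted p = 0.000946) in control limbs by edgeR, where 190 of 10974 genes passed (1.73%, with 0.975% higher and 0.756% lower in males). In immobilized limbs it was -0.71 (SE 0.15, 0.612-fold, adjusted p = 0.00271), where 4.33% of 11144 genes passed (1.34% higher and 3% lower in males). Without the animals that have a library low in Acta1 the differences were -0.55 and -0.50, and both passed. The difference of the sex gap between the limbs, -0.05 (SE 0.13), did not pass. Within the animals numbered 1 to 20, 21 to 40 and 41 to 59, the male minus female values of Xbp1 were -0.40, -0.59 and -0.39 in control limbs and -0.93, -0.59 and -0.57 in immobilized limbs, and none of these 6 passed alone. Adipocyte markers also differed in their summed median, 3309 CPM in female and 2206 CPM in male control limbs, and their part in the Xbp1 difference was not tested.

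No other member passed between the sexes. All 5 chaperones had lower values in males in both limbs, from -0.17 (Hspa5) to -0.38 (Pdia4) in control limbs and from -0.17 (Hspa5) to -0.86 (Pdia4) in immobilized limbs. For Pdia4 in immobilized limbs the adjusted p was 0.0692 by edgeR, and without the low Acta1 animals the difference was -0.17 (adjusted p = 0.733). Under that setting Hspa5 and Hsp90b1 were at -0.01 in immobilized limbs. Atf4 had higher values in males, by 0.14 in control and 0.20 in immobilized limbs (adjusted p = 0.44 and 0.108).

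Few other genes of the pathway, taken from lists, passed between the limbs. Over all genes tested 4.57% in females and 2.21% in males passed, and 24.4% and 17% reached an unadjusted p of 0.05 by edgeR. Among 6 sensors and activating proteases (Ern1, Eif2ak3, Atf6, Atf6b, Mbtps1, Mbtps2) 0 passed in either sex, with 1 at an unadjusted p of 0.05 in females and 0 in males. Among 19 other ER chaperones and folding enzymes 0 passed, with 4 and 2 at an unadjusted p of 0.05. The medians of that list were 0.12 in both sexes, against 0.01 and 0.00 over all genes tested. In ER-associated degradation 1 of 13 passed in females and 0 in males: Herpud2, a relative of Herpud1, fell by 0.28 (SE 0.07, adjusted p = 0.0222, lower in 22 of 28 females), and its male value was -0.13 (adjusted p = 0.339). In ER entry and translocation 1 of 13 passed in females and 0 in males: the signal peptidase subunit Spcs2 rose by 0.23 (SE 0.07, adjusted p = 0.0412), from a median of 55.7 to 65.6 CPM. In collagen folding and export 1 of 17 passed in females and 0 in males by edgeR, with 6 and 3 at an unadjusted p of 0.05. P4ha1 fell in females by 0.32 (adjusted p = 0.0422). Fkbp10 had 0.60 in females and 0.64 in males, higher in 22 and 21 of 28 animals, and did not pass (adjusted p = 0.0959 and 0.122).

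The 2 genes that fell in both sexes were in the list of Atf4 and CHOP targets, where 2 of 19 passed in each sex, both lower. Atf5, a transcription factor related to Atf4, went from a median of 114 to 75.2 CPM in females and from 117 to 71.6 CPM in males. The log2 change was -0.49 (SE 0.12, adjusted p = 0.0158) in females and -0.67 (SE 0.12, adjusted p = 0.000526) in males, and 21 of 28 females and 25 of 28 males were lower. Cebpg, a partner of Atf4 on DNA, fell by 0.26 (SE 0.07, adjusted p = 0.0331) in females and by 0.34 (SE 0.07, adjusted p = 0.00531) in males, lower in 22 and 25 of 28 animals. The list did not fall as a whole: its median was 0.16 in females and 0.04 in males, and Slc3a2, an amino acid transporter subunit, was higher in 22 of 28 females (0.37, adjusted p = 0.0806). A list of 7 genes held the eIF2 alpha kinases, phosphatase subunits and Eif2s1, which encodes eIF2 alpha itself. Only Eif2s1 passed: it fell in females by 0.26 (adjusted p = 0.0417 by edgeR), and its male value was -0.16 (adjusted p = 0.266). Among 7 genes of ER stress cell death, 0 passed in either sex (1 and 0 at an unadjusted p of 0.05). Of 14 sarcoplasmic reticulum genes 0 passed (1 and 0 at an unadjusted p of 0.05).

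The chaperones did follow the change in fibrillar collagen across animals. The collagen change of an animal is the mean within-animal log2 change of Col1a1, Col1a2 and Col3a1, the main fibrillar collagens. Col3a1 itself rose in females by 1.06 (SE 0.30, adjusted p = 0.0348) and had 0.94 in males (adjusted p = 0.0791), while Col1a1 ran from -2.64 to 3.76 among females, so animals spread widely on this measure. In a limma regression of each gene's change on the collagen change with a sex term, 6 of 10 members passed with a positive slope and 0 with a negative one. Over all 11886 genes, 15% passed with a positive slope and 10.6% with a negative one, 25.6% in all. The 6 were all 5 chaperones and Xbp1, and no further member reached an unadjusted p of 0.05, which 40.4% of genes did. The chaperones changed together (pairwise r 0.69 to 0.93), so their 5 calls are not independent of each other.

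Pdia3 rose by 0.37 log2 units per unit of collagen (95% interval 0.21 to 0.54, adjusted p = 0.000627). Pdia4 had the steepest slope, 0.39 (0.18 to 0.60, adjusted p = 0.00623), and Hsp90b1 rose by 0.26 (0.11 to 0.40, adjusted p = 0.00742). Calr (0.18, 0.08 to 0.28, adjusted p = 0.00704) and Hspa5 (0.12, 0.04 to 0.21, adjusted p = 0.0299) had shallower slopes. Xbp1 (0.12, 0.03 to 0.22) was at an adjusted p of 0.049, just inside the threshold. Atf4 (-0.05), Atf3 (-0.05), Ddit3 (-0.02) and Herpud1 (-0.06) did not pass, with adjusted p-values from 0.243 to 0.872. The genes that passed were thus the luminal chaperones and Xbp1, and those that did not were the factors of the Perk arm and Herpud1.

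**Figure D3:**
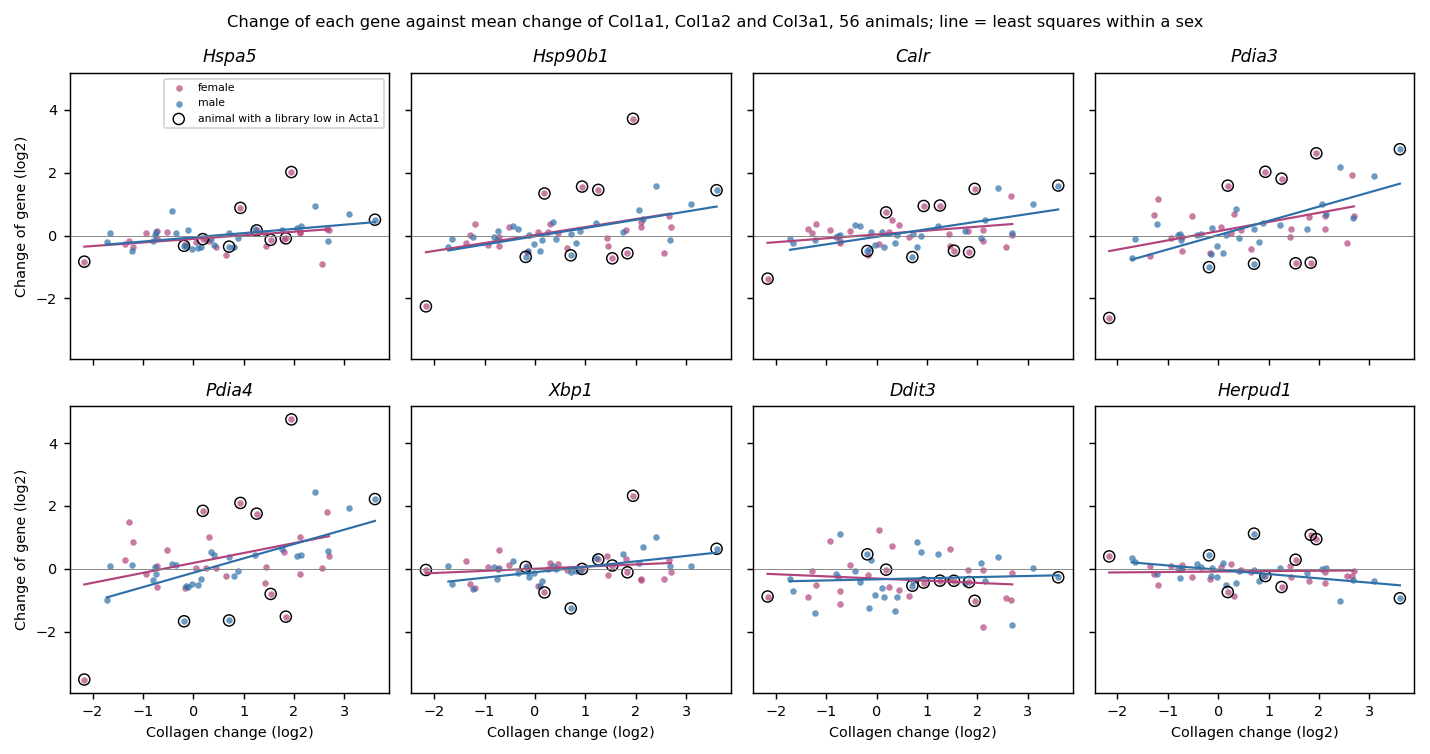
Change of 8 of the genes (log2, immobilized minus control limb) against the mean change of Col1a1, Col1a2 and Col3a1 in the same animal, with least-squares lines for 28 females and 28 males and a ring around animals with a library low in Acta1. The chaperone lines rise in both sexes, with higher r in males, while Ddit3 is flat and Herpud1 falls in males.

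As correlations, with each sex centred on its mean, Pearson's r over 56 animals was 0.53 for Pdia3 (Spearman's rho 0.45), 0.45 for Calr (rho 0.26), 0.45 for Pdia4 (rho 0.38), 0.44 for Hsp90b1 (rho 0.38), 0.37 for Hspa5 (rho 0.40) and 0.34 for Xbp1 (rho 0.31). In the family of 30 relations (10 genes in females, in males and in both), the permutation p-values adjusted for r were 0.00045, 0.00244, 0.0018, 0.0018, 0.0113 and 0.0242 in that order. Those adjusted for rho were 0.0065, 0.107, 0.021, 0.021, 0.0163 and 0.0544, so Calr and Xbp1 did not pass by rank. Without the 2 animals farthest from the median collagen change, r was 0.44 for Pdia3 and 0.30 to 0.38 for the other 5. Among all genes tested, the r of Pdia3 was at the 97th percentile and those of the other chaperones at the 88.9th to 93.8th, against the 25.7th for Herpud1. All of these values come from changes between the same 2 libraries of an animal, so the genes share depth and composition.

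Correlations with collagen had higher values in males than in females, but the difference in slope did not pass. In males Pearson's r was 0.74 for Pdia3, 0.68 for Pdia4, 0.66 for Hsp90b1, 0.63 for Calr, 0.55 for Xbp1 and 0.49 for Hspa5 (permutation p-values adjusted over the 30 relations from 0.0003 to 0.0222). In females the same 6 were between 0.17 (Xbp1) and 0.37 (Pdia3), with adjusted p-values of at least 0.0958. Herpud1 was at -0.47 in males (adjusted p = 0.0258) and 0.04 in females, and Atf4 at 0.04 in males and -0.42 in females (adjusted p = 0.0563; rho -0.45, adjusted p = 0.0479). The male minus female differences of slope were 0.01 to 0.16 for the chaperones, -0.15 for Herpud1 and 0.13 for Atf4. By limma 0 of the 10 passed (adjusted p of at least 0.808), and so did 0 of 11886 genes, with 6.4% at an unadjusted p of 0.05; among the members, 0 reached that level. In males alone all 6 genes passed, where 24.3% of genes did (14.2% with a positive and 10.2% with a negative slope). In females alone 0 did, where 1.27% of genes did (1.2% positive and 0.0673% negative).

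The number of members called depended on which animals and which collagen were used. Without the 10 animals that have a library low in Acta1, Pdia3 (slope 0.26), Pdia4 (0.23) and Hsp90b1 (0.14) still passed and Calr (0.11), Hspa5 (0.07) and Xbp1 (0.09) did not, where 14.9% of all genes passed. Without the 2 animals farthest from the median collagen change, only Pdia3 (0.30, adjusted p = 0.0181) passed, where 8.52% of all genes did. Without males 15 and 16, the 5 chaperones passed and Xbp1 (0.12, adjusted p = 0.0551) did not, where 24.6% of all genes passed. With Col1a1 alone only Pdia3 passed (0.24), where 8.12% of all genes did. With Col3a1 alone 7 of 10 did, the 6 genes with positive slopes and Herpud1 with a negative one (-0.12, adjusted p = 0.00339), where 54.3% of all genes passed. Within the animals numbered 1 to 20 only Pdia3 passed (0.38), as did 6.41% of all genes. Within those numbered 21 to 40 Hsp90b1, Calr, Pdia3 and Pdia4 passed with slopes of 0.32 to 0.60 and Herpud1 with -0.16, where 42.4% of all genes passed. Within those numbered 41 to 59 0 of 10 did, where only 0.261% of all genes passed, and the slopes of Pdia3 (-0.11) and Pdia4 (-0.23) were negative.

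Levels gave different counts in the 2 limbs. Across the levels in immobilized limbs, the 5 chaperones passed with slopes of 0.12 to 0.44 and Herpud1 with -0.10, where 47.4% of all genes passed. Across the levels in control limbs 0 of 10 passed and the chaperone slopes lay between -0.04 and 0.03, where 2.18% of genes passed. The difference between the limbs was not tested.

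Markers of other cells moved with the same genes. The change of the summed macrophage markers correlated with the change of Pdia3 at r = 0.86 over 56 animals, of Pdia4 at 0.79, of Hsp90b1 at 0.77, of Calr at 0.75 and of Hspa5 at 0.56, and with the collagen change at 0.64. All 10 macrophage markers were detected, their sum ran from 21.3 to 707 CPM in control limbs and 25.8 to 1633 CPM in immobilized limbs, and the 2 highest libraries were the immobilized limbs of male 31 and female 2. For T, B and NK cell markers r was 0.80 with Pdia3 and 0.21 with collagen, for plasma cell markers 0.64 and 0.14, and for fibroblast markers 0.47 and 0.64. Spearman's rho for these 3 lists was 0.69 and 0.21, 0.38 and -0.03, and 0.48 and 0.68, so the plasma cell values were lower by rank. The T, B and NK cell sum had a median of only 1.29 to 2.67 CPM in the 4 groups. Muscle fibre markers went the other way, at -0.61 with Pdia3 and 0.63 with Herpud1. Herpud1 was at -0.65 with endothelial and -0.57 with adipocyte markers. Endothelial and T, B and NK cell sums ranged from 88.0 to 807 CPM and from 0 to 1608 CPM. In the regression, the macrophage and fibroblast terms were the mean log2 change of the tested markers (9 and 10 genes), not the change of their sum. With the macrophage term 0 of 10 members passed, where 7.08% of all genes did, and the chaperone slopes were between -0.13 and -0.0037. With the fibroblast term 0 of 10 passed, where 1.26% of all genes did, and the chaperone slopes were 0.05 to 0.07. With the Acta1 change 5 of 6 still passed, all but Xbp1, where 22.4% of all genes passed. The summed macrophage and fibroblast markers correlate with collagen themselves (r = 0.64 for each), and the part of each cell type in the relation was not tested.

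**Figure D4:**
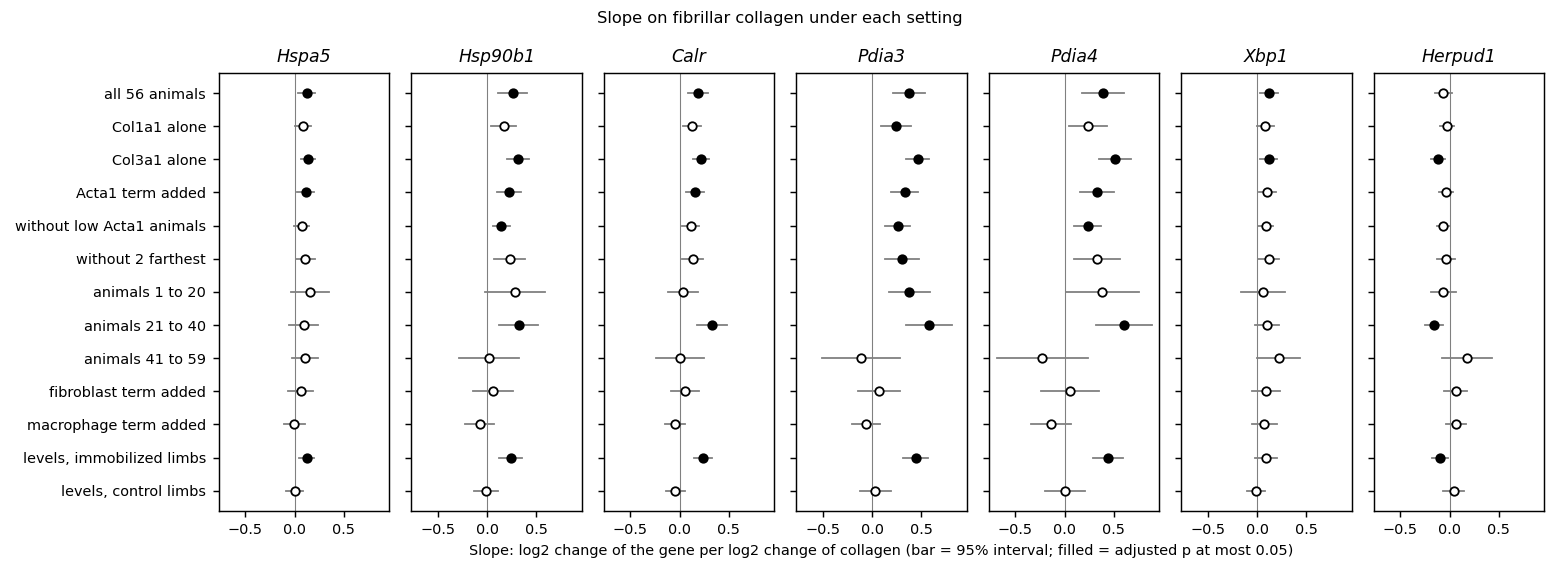
Slope of 7 of the genes on the collagen measure with its 95% interval under several settings, filled where the adjusted p is at most 0.05. Pdia3 is open with a fibroblast or macrophage term, in control limbs and among animals 41 to 59, and filled in the other settings; Hspa5 and Xbp1 are filled in fewer.

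Beyond the members, genes for folding and exporting collagen had the highest median slope of the ER lists that hold no member, below those of fibroblast markers (10 of 10 positive, median slope 0.37) and macrophage markers (9 of 9, median 0.69). In that list 12 of 17 passed with a positive slope and 0 with a negative one, led by the prolyl isomerase Fkbp10 (slope 0.65, SE 0.07), the ER-bound factor Creb3l1 (0.56), the collagen chaperone Serpinh1 (0.48, SE 0.06) and the prolyl hydroxylase family member P3h3 (0.47). Serpinh1 went from a median of 53.9 CPM in male control limbs to 58.6 CPM in male immobilized limbs, with a maximum of 363 CPM. Of the other ER chaperones and folding enzymes 12 of 19 passed, all positive, with Txndc5 (0.24), Pdia5 (0.42), Calu (0.14) and Ppib (0.40) at the smallest p-values. In ER entry 3 of 13 passed, where the translocon pore gene Sec61a1 had 0.39 and the translocon-associated Ssr1 0.17. In ER-associated degradation 3 of 13 passed (Edem1 0.49, Os9 0.27, Edem2 0.28). Both counts are near the share over all genes, where 25.6% passed, 15% with a positive slope. Of the sensors and proteases 3 of 6 passed: Atf6b (0.30, adjusted p = 0.00313), Atf6 (0.11, adjusted p = 0.0287) and Mbtps1 (0.08, adjusted p = 0.0377), and Eif2ak3 (0.18) was at an adjusted p of 0.0527. Among the 14 sarcoplasmic reticulum genes 0 passed, and their median slope was -0.24.

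Among the Atf4 and CHOP targets 7 of 19 passed with a positive and 1 with a negative slope, although Atf4 and Ddit3 did not pass. Over all genes 15% passed with a positive and 10.6% with a negative slope. The stress-inducible nuclear protein gene Nupr1 (0.66), the proline synthesis gene Aldh18a1 (0.59) and the serine synthesis genes Psat1 (0.62) and Phgdh (0.67) had the smallest p-values. In the list of 7 eIF2 alpha kinases, phosphatase subunits and Eif2s1, 0 passed, and of 7 ER stress cell death genes 1 did, Bok (0.37, adjusted p = 0.0212 by limma). Medians of slope were 0.24 for collagen folding and export, 0.18 for the other chaperones, 0.26 for the 5 member chaperones and 0.00 over all genes.

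Within the member set the chaperones changed together. Over 56 animals the 10 pairs among the 5 chaperones had Pearson's r from 0.69 (Hspa5 with Pdia3) to 0.93 (Pdia3 with Pdia4). Each stayed at 0.58 or above without the 2 farthest animals. Those are the 2 whose change lay farthest from the median for the pair's second gene, in the order of the opening list. They can thus differ between pairs. Xbp1 was at 0.70 with Hspa5 and between 0.41 and 0.57 with the other 4, and without the 2 farthest animals at 0.50 and 0.22 to 0.40. Herpud1 was negative with Pdia3 (-0.51), Pdia4 (-0.42) and Calr (-0.40) and near 0 with Hspa5 (0.03). Among the Perk-arm factors r was 0.40 between Atf3 and Ddit3, 0.36 between Atf4 and Ddit3 and 0.28 between Atf4 and Atf3. The last pair did not pass (permutation p adjusted over the 45 pairs 0.0741 for r and 0.125 for rho) and was at 0.18 without the 2 farthest animals. Between those 3 factors and the 5 chaperones r stayed between -0.27 and 0.11. In the family of 45 pairs, every chaperone pair had the smallest p that 100000 permutations can give, which adjusted to 4.09e-05, and the adjusted p-values of Atf3 and Atf4 with Ddit3 were 0.00691 and 0.0167.

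**Figure D5:**
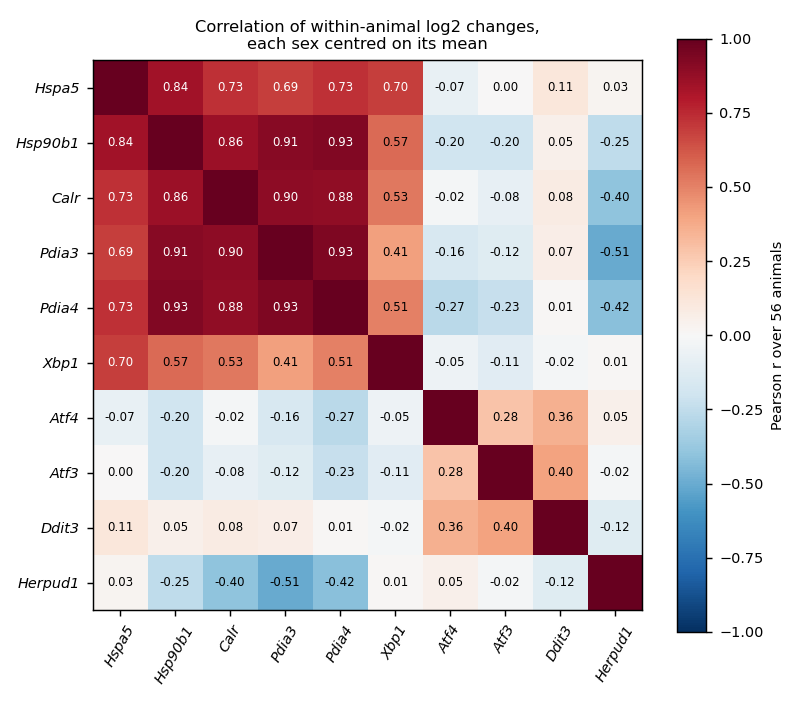
Pearson's r between the within-animal log2 changes of each pair of the 10 genes over 56 animals, each sex centred on its mean. The 5 chaperones form a block of 0.69 to 0.93, Atf3, Atf4 and Ddit3 lie at 0.28 to 0.40 with each other, and Herpud1 is negative with Pdia3 at -0.51.

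The non-member genes whose changes were most like each member were taken by Pearson's r over the 56 animals, low Acta1 animals included. They mixed ER genes with genes of other functions. Hspa5 was nearest to the ER chaperones Canx (0.77), Hyou1 (0.76) and Pdia6 (0.73), and Calr to Pdia6 (0.92), Manf (0.89) and Clptm1l (0.88). Hsp90b1 was nearest to Actr3, Edem1 (both 0.90) and Creld2 (0.89), Pdia3 to Gnb1, Sec61a1 and Cfl1 (all 0.94) and Pdia4 to Edem1 (0.93), Actr3 (0.92) and Msn (0.90); Actr3, Cfl1 and Msn encode proteins of the actin cytoskeleton. Xbp1 was nearest to Ctsc (0.65), Yipf5 (0.63) and Tm9sf3 (0.62). Atf4 was nearest to Hint1 (0.75), Eif1 and Tceb2 (both 0.72), and Atf3 to the heat shock gene Hspa1a (0.72), Otud1 (0.70) and the small heat shock gene Hspb1 (0.68). Ddit3 had the weakest neighbours, Mknk2 (0.56), Ifrd1 (0.53) and Pdlim1 (0.52), and Herpud1 was nearest to Cpox (0.78), Slc35e1 (0.76) and Nt5dc3 (0.76).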

How the data were processed

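The authors deposited raw counts per gene symbol, 1 table for each sex, from stranded total RNA libraries after ribosomal RNA depletion, per the labels' protocols. No aligner, counter or build is named: each is "not given in the sources used here". CPM and log2 values were computed from the counts with TMM library sizes (prior count 2 for log2). edgeR 4.0.16 in R 4.3.3 fitted the quasi-likelihood test to all 112 libraries with an animal term and 1 cast effect per sex, over 11886 genes left by edgeR's expression filter. The sexes were compared separately in control and in immobilized limbs (10974 and 11144 genes). limma 3.58.1 regressed within-animal changes on collagen change. p-values were adjusted by the Benjamini-Hochberg method over all genes, with a threshold of 0.05, and correlations were tested with 100000 two-sided permutations within sex. DESeq2 1.42.0 and limma voom were alternatives. Both fits were also run on simulated data, with no animal effects in the counts and independent noise for each gene in the changes. The simulations thus lack the likeness between an animal's limbs and the correlated changes of the real data. Their results are not given here.

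Replicate numbers are animal numbers, so limbs pair by animal: the median correlation between the deviations of an animal's 2 limbs was 0.364, against 0.00661 between animals. The range of animal numbers (1 to 20, 21 to 40, 41 to 59) is used only as a split; the labels give it no meaning. The text names all 10 members, Col1a1, Col1a2, Col3a1, Acta1, up to 4 genes per list with the smallest p in females, in males and against collagen, and the 3 genes most like each member. The members and lists were chosen with earlier results of these data known. The macrophage term, the sex comparisons within number ranges and the test between number ranges were chosen after seeing the data. Older symbols (Ero1l, Ero1lb, Cyr61) were used where the tables hold them. Promoter letters are from RefSeq, where all 10 members matched.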

Additional observations from a re-analysis of the deposited data

How the results depend on the processing

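No alternative called a member between the limbs in either sex, or for the difference between the sexes in that change or in the collagen slope. Without the replicate block (the animal term) 0 members passed in females and 0 in males, where 4.38% and 4.96% of all genes did. At an unadjusted p of 0.05 there were 4 and 2 of 10 members, against 2662 and 2305 of all 11886 genes. For sex in control and in immobilized limbs, the 1 member called (Xbp1) became 0 within each of the 3 ranges of animal numbers, where groups hold 8 to 10 animals, and it was called in the other 8 alternatives of each limb. The 6 members called against collagen became 1 with Col1a1 alone, 0 with a fibroblast or a macrophage term, 3 without the low Acta1 animals, 1 without the 2 animals farthest from the median, 1 in animals 1 to 20, 0 in animals 41 to 59 and 0 in control-limb levels; the causes were not tested. With the macrophage term the slope estimate changed sign for Hspa5 (-0.0037), Hsp90b1 (-0.0763), Calr (-0.0461), Pdia3 (-0.0617) and Pdia4 (-0.13). It also did so in animals 41 to 59 for Pdia3 (-0.11) and Pdia4 (-0.23). In control-limb levels it did so for Hspa5 (-0.00025), Hsp90b1 (-0.0098), Calr (-0.0424) and Xbp1 (-0.0117). The control-limb values are slopes across levels, not across within-animal changes. None of these negative slopes passed and the interval of each included 0, so an opposite relation was not shown. Of 939 single-gene values under alternatives, 42 lost and 3 gained a call with the sign unchanged. The 11 slopes just named lost their call and changed sign. A further 110 values changed sign with neither value past the threshold. The low Acta1 animals hold the widest changes of Hsp90b1, Pdia3 and Pdia4 in females, while in males the highest changes of Hspa5, Hsp90b1 and Pdia4 are those of male 31, which is not among them. At these depths Ddit3 and Pdia4 rest on as few as 8 and 10 reads in a library. Counts over all genes moved by over 1.5 times in several settings: the 543 genes called in females became 145 with no low-count filter, 1145 by DESeq2, 2017 without the low Acta1 animals, 84 with females alone and 0 in each of the 2 later number ranges, and the 263 in males became 109, 576 and 1071 under the first 3 of these, 454 by limma voom, 589 without the block, 582 with males alone and 6, 0 and 1 in the number ranges. The 190 and 483 called by sex (control, immobilized) became 836 and 1743 with no filter, 346 and 1067 with a mean of 1 CPM, 120 and 163 by voom, 334 and 197 without the low Acta1 animals and 7 to 66 in the number ranges. The 3045 called against collagen ranged from 31 (animals 41 to 59) to 6456 (Col3a1 alone).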

Other observations

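The changes of Atf3 were also set out by the range of animal numbers, a split whose meaning the labels do not give and which was looked at after the data were seen. Among animals numbered 21 to 40, Atf3 was higher in the cast limb of 7 of 8 females (median change 1.03) and 9 of 10 males (1.55). Among those numbered 1 to 20 it was higher in 4 of 10 females (-0.35) and 3 of 10 males (-0.96), and among those numbered 41 to 59 in 4 of 10 females (-0.39) and 3 of 8 males (-0.42). In the middle range the male levels went from a median of 12.1 CPM in control limbs to 26.7 CPM in immobilized limbs, and in the last range from 48.2 to 23.1 CPM. A limma F test of the change between the 3 ranges gave an unadjusted p of 0.000328 for Atf3 and an adjusted p of 0.975 over 11886 genes, of which 1 passed (0.00841%), so the difference did not pass. Without the low Acta1 animals the unadjusted p was 0.00046.

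Immediate early genes, a class of rapidly inducible genes that includes Fos and Egr1, were looked at the same way. Fos, part of the AP-1 factor, had median changes of -1.42, 1.58 and -1.53 in females and 0.59, 1.74 and 0.46 in males in the 3 ranges in order, and was higher in 10 of 10 males of the middle range. Egr1 had -0.61, 0.86 and -0.90 in females and -0.01, 1.35 and -0.20 in males. The same F test was read for 3 immediate early genes, with unadjusted p-values of 0.000622 for Fos, 0.0028 for Egr1 and 0.168 for Jun. For the 3 genes most like Atf3 across animals it gave 0.0135 for Hspa1a, 0.0612 for Hspb1 and 0.437 for Otud1. None of these 6 genes passed after adjustment (adjusted p = 1.00 by limma for each).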
